A study of Mus musculus with 30 samples.

Results

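The genes of cholesterol synthesis, uptake and export were described in 5 lines of βTC3, an insulin-producing cell line from a mouse islet tumour, with and without activin B. The 32 genes were taken from the count table by symbol, out of 39017 genes in all: 31 matched directly, and Msmo1 matched by gene ID under the older symbol Sc4mol. They comprised 19 synthesis enzymes, 4 regulators of the transcription factor SREBP2, 4 genes of sterol transport and esterification, and 5 genes of the oxysterol receptors LXR and of export. All 32 passed the low-count filter, which kept 15627 genes.

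The study sequenced poly(A) RNA to follow activin B signalling through ALK7, a type I receptor of the TGF-β family encoded by Acvr1c. There were 10 groups of 3 libraries each: the ALK7 line, the dominant-negative ALK7-DN line, 2 ALK7 knock-down lines labelled sh2 and sh1/2, and the control line, each with activin B or without. Every group, controls included, had doxycycline (DOX), the inducer of the constructs, at 1 µg/ml for 24 hours, and the activin B groups also had 50 ng/ml activin B for 24 hours. Control, ALK7 and ALK7-DN cells carried the PB-33 plasmid and both knock-down lines PB-31, with no hairpin-free PB-31 line among the samples. Each construct was represented by 1 line plated in wells, so p-values measure only the spread between these wells, which may be technical, and a line cannot be told apart from its construct. The labels put 24 libraries in batch 1 and 6 in batch 2. Batch 2 held the activin B arm of ALK7-DN and the DOX arm of sh2, so in these lines activin B and batch cannot be told apart.

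Cells build cholesterol from acetyl-CoA through mevalonate, isoprenoids, squalene and a chain of sterol intermediates. When membranes of the endoplasmic reticulum hold little sterol, SCAP escorts SREBP2 to the Golgi, where it is cleaved, and it then raises transcription of nearly the whole enzyme chain. INSIG proteins hold SCAP back when sterol is plentiful. Oxysterols, which accumulate when cholesterol is high, activate the receptors LXRα and LXRβ, which raise transcription of the exporters ABCA1 and ABCG1. In beta cells cholesterol content is known to affect insulin granules and secretion, and ABCA1 is known to matter for glucose-stimulated secretion.

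Promoters are shown for the 4 genes on which the results below turn. Among the enzymes Hmgcs1 and Msmo1 were furthest below the control line in sh1/2 cells with activin B, Tm7sf2 was the one called in every line with activin B, and Abca1 had the highest activin B response of the 32. Each is the RefSeq window on GRCm38.p6, 250 bases before to 50 bases after the annotated start, written 5′ to 3′ on the gene's strand. Capitals mark motif matches on either strand: the sterol regulatory element TCACNCCAC, the CCAAT box (ATTGG when on the other strand), the E-box CACGTG, and GGTNA followed by NNNNN and a second GGTNA, a loose spelling of the spaced repeat bound by LXR, which in Abca1 lies on the other strand. No matches overlapped.
Hmgcs1, chr13:119690101-119690400, plus strand: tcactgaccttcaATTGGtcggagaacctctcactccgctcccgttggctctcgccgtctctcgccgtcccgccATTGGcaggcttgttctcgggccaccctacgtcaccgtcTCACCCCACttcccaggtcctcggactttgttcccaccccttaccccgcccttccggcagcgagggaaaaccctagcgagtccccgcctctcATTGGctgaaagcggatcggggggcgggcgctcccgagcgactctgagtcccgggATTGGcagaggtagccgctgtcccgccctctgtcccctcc
Msmo1, chr8:64733529-64733828, minus strand: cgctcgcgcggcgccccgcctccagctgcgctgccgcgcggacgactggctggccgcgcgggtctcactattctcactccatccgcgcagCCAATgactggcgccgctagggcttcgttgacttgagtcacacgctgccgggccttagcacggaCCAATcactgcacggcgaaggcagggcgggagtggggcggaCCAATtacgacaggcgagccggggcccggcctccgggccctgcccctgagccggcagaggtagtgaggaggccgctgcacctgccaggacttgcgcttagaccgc
Tm7sf2, chr19:6067801-6068100, minus strand: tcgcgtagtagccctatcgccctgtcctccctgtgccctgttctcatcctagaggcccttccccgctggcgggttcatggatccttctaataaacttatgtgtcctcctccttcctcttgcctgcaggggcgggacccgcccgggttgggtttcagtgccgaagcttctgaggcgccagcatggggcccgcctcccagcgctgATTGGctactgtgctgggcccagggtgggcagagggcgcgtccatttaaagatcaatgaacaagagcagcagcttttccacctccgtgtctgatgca
Abca1, chr4:53159846-53160145, minus strand: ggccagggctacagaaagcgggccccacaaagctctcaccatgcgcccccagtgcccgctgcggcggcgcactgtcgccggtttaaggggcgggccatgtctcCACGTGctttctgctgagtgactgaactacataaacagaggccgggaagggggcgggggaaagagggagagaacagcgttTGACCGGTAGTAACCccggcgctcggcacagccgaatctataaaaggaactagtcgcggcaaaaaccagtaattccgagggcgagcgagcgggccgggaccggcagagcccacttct
RefSeq windows were found for 26 of the 32 genes, 33 windows in all. The sterol regulatory element in this spelling stood in 1 of the 33, that of Hmgcs1, and in 1.24% of 32851 promoters. The CCAAT box stood in 21 of the 33 and in 37.4% of all promoters. The E-box stood in 7 of the 33 and in 7.15% of all, and the loose repeat in 1 of the 33, that of Abca1, and in 0.718% of all. These matches describe letters in a window and were not tested as binding sites.

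Library totals ran from 18904884 to 34740789 counts. Acvr1c, the targeted gene, measured 28.0, 25.5 and 26.6 CPM (counts scaled to library size) in sh1/2 cells and 44.5, 40.9 and 42.7 CPM in sh2 cells with activin B, against 96.9, 110 and 95.2 CPM in control cells. Under DOX alone it measured 59.98, 46.1 and 59.9 CPM in sh1/2 cells and 55.6, 68.7 and 81.3 CPM in sh2 cells, against 167, 158 and 170 CPM in control cells. In the line labelled as expressing ALK7 it measured 85.4, 74.7 and 81.8 CPM with activin B and 163, 142 and 158 CPM under DOX alone. Counted Acvr1c was thus not higher there than in control cells (log2 -0.32 ± 0.10 with activin B, edgeR adjusted p = 0.082, and -0.10 ± 0.10 under DOX alone, edgeR adjusted p = 0.75). Whether reads of the construct would be counted under Acvr1c was not tested. ALK7 below is the name of that line and not a measured gain of the receptor. In ALK7-DN cells Acvr1c lay between 99.4 and 116 CPM with activin B and between 156 and 170 CPM under DOX alone. Smad7, an inhibitory SMAD known as an early activin target, averaged 10.9 to 16.9 CPM across the 5 activin B groups and 2.23 to 4.21 CPM across the 5 DOX groups. All 10 beta cell markers were high in every library, with Ins2 between 4093 and 11076 CPM. The 19 markers of acinar, duct, stromal, endothelial and macrophage cells were near 0; Prss2 and Amy2a5 were at 0 in all libraries, Cd68 reached 3.74 CPM and Col1a1 2.15 CPM. Of the 3 liver markers, Ttr, also made by islet cells, reached 404 CPM and Alb 15.5 CPM.

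Levels per kilobase of exon are given here for control cells under DOX alone. The length used was that of all annotated exons of a gene together. It can exceed that of the transcripts expressed, so the order of genes depends on it. Insig1 was highest at 141 ± 7.57 CPM per kb (SD, n = 3), followed by Hmgcs1, the mevalonate pathway's HMG-CoA synthase, at 99.5 ± 7.05 CPM per kb. Fdps, farnesyl diphosphate synthase, came next at 94.9 ± 5.25 CPM per kb, within the spread of Hmgcs1. The exporters Abca1 and Abcg1 lay far lower, at 7.88 ± 0.234 and 5.29 ± 0.438 CPM per kb. Nr1h3, which encodes LXRα, was the lowest of the 32 at 0.775 ± 0.0276 CPM per kb, while Nr1h2, which encodes LXRβ, stood at 10.6 ± 1.59 CPM per kb.

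Activin B was followed by higher RNA of the exporters in all 5 lines and by little common change in the enzymes. Across the lines, 3 of the 32 genes rose in each (Abca1, Abcg1 and Npc2), 2 fell in each (Tm7sf2 and Soat1), and 9 were called in no line. Of all genes tested, 4.33% rose in each line, 3.54% fell in each and 46.1% were called in none. In control cells 7 members rose and 3 fell, in a comparison that called 20.3% of all genes, 10.7% higher and 9.66% lower. In ALK7 cells 4 rose and 7 fell, beside 25.3% of all genes called (12.3% lower). For sh1/2 cells the counts were 8 and 9, beside 36.6% (17.5% higher, 19.1% lower). In ALK7-DN cells 9 rose and 2 fell, beside 16.1% (8.48% higher, 7.62% lower), and in sh2 cells 5 rose and 3 fell, beside 19.6% (10.7% higher, 8.91% lower). As shares of the 32, members called were 31.2% in control, 34.4% in ALK7, 53.1% in sh1/2, 34.4% in ALK7-DN and 25% in sh2 cells. These lay above the shares of all genes called, but the excess was not tested and was small in sh2 (25% beside 19.6%). The median log2 fold change over the 32 lay between -0.01 and 0.13 in the 5 lines, beside -0.01 to 0.00 for all genes tested. The control count of 10 was 16 with a GC correction, and 4 with the control groups fitted alone (Abca1, Soat1, Tm7sf2 and Ebp). Without control activin B replicate 3 the control count was 6, and without ALK7-DN DOX replicate 3 the ALK7-DN count was 7. Here and below, the shares of all genes called under such alternative settings are not given. A change in a member count thus cannot be told apart from a general change in calls. The summed CPM of 10 beta cell markers was also lower with activin B, at 16537 to 21173 in the control, ALK7, ALK7-DN and sh2 lines, against 22191 to 25958 with DOX alone, while it overlapped in sh1/2; its part in these results was not tested. In bulk RNA a change in the share of cells that carry a transcript and a change in its level per cell cannot be told apart.

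**Figure D1:**
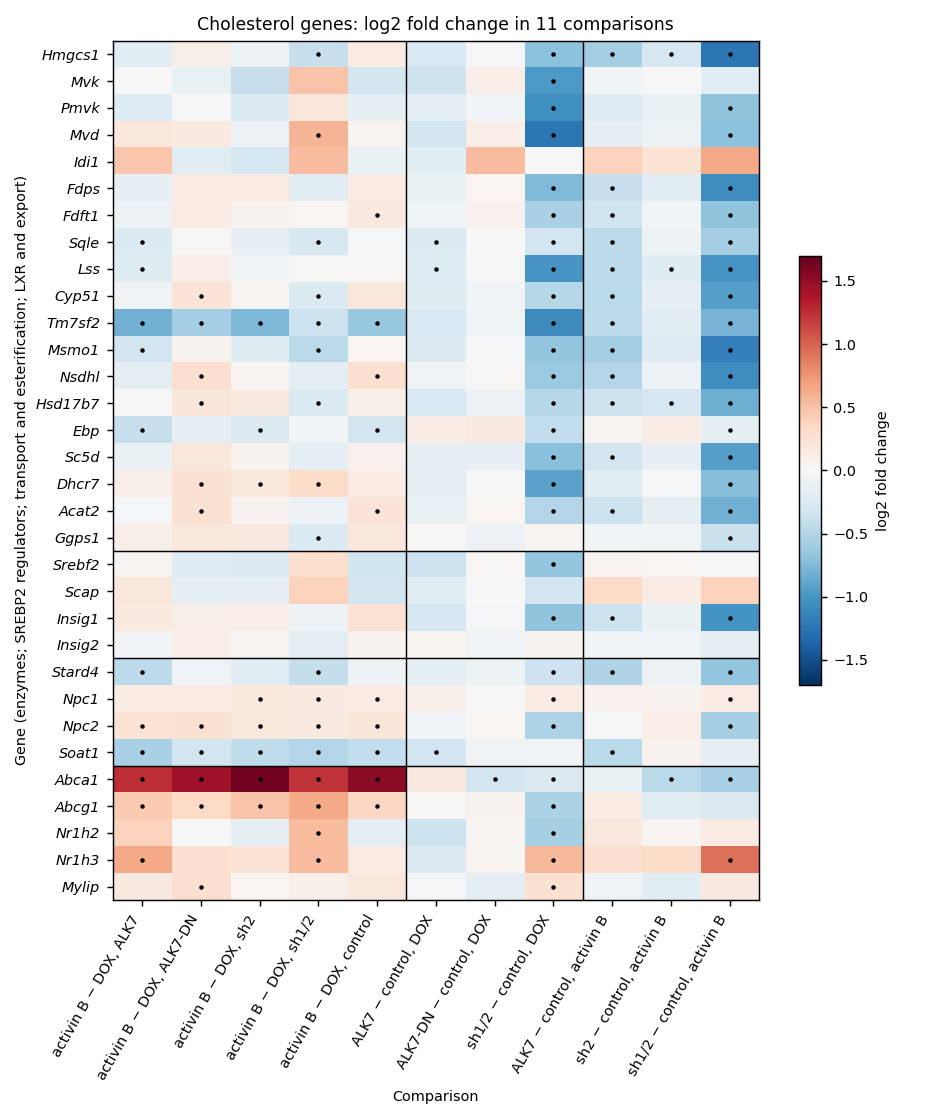
Log2 fold change of the 32 genes (rows, grouped by role) in 11 comparisons (columns; edgeR, 3 libraries a group), red for higher and blue for lower, with a dot where the adjusted p was under 0.05. Abca1 was red and dotted in all 5 activin B columns (1.23 to 1.65), and the enzyme rows were mostly blue in the 2 columns of sh1/2 against control.

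Abca1 (mm10 chromosome 4, 53030787 to 53159895, minus strand) encodes the transporter that loads cholesterol onto apolipoprotein A-I. It measured 246, 239 and 225 CPM in control cells with activin B, against 84.4, 80.2 and 80.2 CPM with DOX alone. In ALK7 cells it measured 222, 212 and 220 CPM with activin B, against 94.2, 87.9 and 92.5 CPM. The sh1/2 cells had 168, 155 and 160 CPM with activin B, against 73.8, 59.5 and 73.2 CPM. The lowest activin B library stood well above the highest DOX library in each of these lines. In ALK7-DN cells Abca1 measured 176, 168 and 188 CPM with activin B, against 64.6, 64.7 and 67.7 CPM with DOX alone. In sh2 cells it measured 178, 167 and 171 CPM with activin B, against 49.1, 55.4 and 60.6 CPM. The groups were as far apart in these lines, where batch changes with treatment. Expressed as a fold change, Abca1 rose 2.899-fold in control cells, 2.38-fold in ALK7, 2.71-fold in ALK7-DN, 3.13-fold in sh2 and 2.34-fold in sh1/2. The log2 fold change in control cells was 1.54 ± 0.07 (SE; edgeR quasi-likelihood test, adjusted p = 2.4e-14), and the call held in all 14 alternative settings in each line.

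Abcg1 (chromosome 17, 31057675 to 31117988, plus strand), the half-transporter that passes cholesterol to lipoprotein particles, rose less. It measured 56.2, 41.1 and 49.9 CPM in control cells with activin B, against 40.6, 34.9 and 40.2 CPM with DOX alone, so the groups only just separated. The sh1/2 cells had 42.6, 39.5 and 42.8 CPM with activin B, against 25.5, 30.04 and 24.1 CPM, and the ALK7 cells 57.8, 51.2 and 52.0 CPM, against 40.3, 38.2 and 39.3 CPM. No library overlapped between treatments in either line. The log2 fold changes were 0.35 ± 0.10 in control, 0.45 ± 0.09 in ALK7, 0.34 ± 0.09 in ALK7-DN, 0.49 ± 0.10 in sh2 and 0.65 ± 0.10 in sh1/2 (SE), with adjusted p between 0.012 in ALK7-DN and 1.7e-05 in sh1/2. The call was lost in control cells in 3 of 14 settings (adjusted p up to 0.125: these groups alone, without DOX replicate 2 or without activin B replicate 1). In ALK7-DN cells it was lost without DOX replicate 2 or 3 or activin B replicate 1 (adjusted p up to 0.0846).

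The receptors themselves responded unevenly. Nr1h3 measured 2.42, 2.86 and 2.47 CPM in ALK7 cells with activin B, against 1.74, 1.85 and 1.38 CPM, a log2 fold change of 0.64 ± 0.20 (adjusted p = 0.022, but 0.119 without ALK7 DOX replicate 3 and 0.0918 without ALK7 activin B replicate 2). The sh1/2 cells had 3.74, 4.55 and 4.003 CPM with activin B, against 1.92, 3.70 and 2.89 CPM, and the call (0.53 ± 0.19, adjusted p = 0.036) had an adjusted p of 0.783 without the 3 libraries described below as poor in GC-rich genes. That setting leaves 1 library, replicate 2, in the sh1/2 DOX group and 2 in the control activin B group, and the lone library is assumed to vary like the other groups; the part of the smaller groups in lost calls was not tested. The mean Nr1h3 value over the control, ALK7 and sh1/2 lines, with both arms in batch 1, was 0.43. It was called there and in all 26 alternative settings, in a contrast that called 39.1% of all genes. In control cells the groups overlapped (2.30, 1.5 and 2.58 CPM with activin B, against 2.02, 1.88 and 1.94 CPM). Nr1h3 overlaps Gm13783 on the same strand and Gm23390 on the other. The strand setting of the counting was not given in the sources used here, so Nr1h3 counts are uncertain. Nr1h2 was called in sh1/2 cells alone among the 5 lines, at 31.99, 38.7 and 34.4 CPM with activin B, against 18.6, 35.1 and 18.2 CPM. DOX replicate 2 lay among the activin B values, and with that library as the whole DOX group the adjusted p was 1.00. Mylip encodes the LXR-induced ligase that marks lipoprotein receptors for degradation. Its mean over the control, ALK7 and sh1/2 lines was 0.15, a call that held in 25 of 26 settings. It was called in none of these 3 lines singly. It rose in ALK7-DN cells, where batch and treatment coincide, with 15.2, 16.9 and 15.2 CPM with activin B, against 13.5, 13.3 and 11.96 CPM (0.28 ± 0.08, adjusted p = 0.013, and 0.0548 when those groups were fitted alone).

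**Figure D2:**
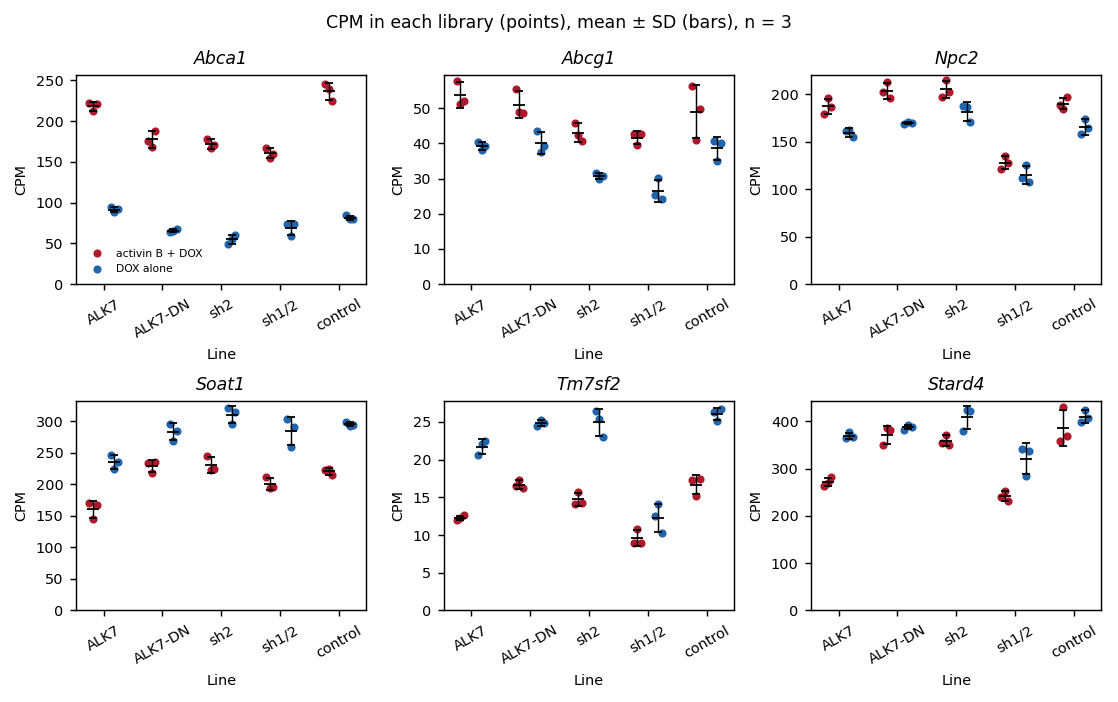
CPM in each library (points) with mean ± SD (bars, n = 3) for 6 genes in 5 lines, with activin B left of DOX alone. Abca1 stood at 155 to 246 CPM in all activin B libraries and 49.1 to 94.2 CPM in all DOX libraries; Soat1 and Tm7sf2 had lower means with activin B in each line.

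Among the transport and esterification genes, Soat1 fell and Npc2 rose in each line, while Npc1 and Stard4 were called in some. Soat1 (chromosome 1, 156424525 to 156474331, minus strand) encodes the acyltransferase that turns cholesterol into storage esters. It measured 223, 224 and 215 CPM in control cells with activin B, against 299, 293 and 294 CPM with DOX alone. In ALK7 cells it measured 170, 145 and 167 CPM with activin B, against 247, 224 and 236 CPM. The sh1/2 line had 212, 195 and 195 CPM with activin B, against 303, 259 and 291 CPM. All activin B libraries lay below all DOX libraries within each of these lines, as they also did in ALK7-DN (233, 218 and 235 CPM, against 296, 269 and 284 CPM) and sh2 (245, 222 and 224 CPM, against 320, 295 and 315 CPM). The log2 fold changes lay between -0.55 ± 0.06 in ALK7 and -0.31 ± 0.06 in ALK7-DN (SE), and the call held in all 14 settings in every line. Over the 3 lines with both arms in batch 1 (control, ALK7 and sh1/2) the mean was -0.49 ± 0.04 (adjusted p = 4.6e-11); that contrast called 39.1% of all genes (19.4% higher, 19.7% lower) and, of the members, 8 higher and 7 lower.

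Npc2, the soluble lysosomal protein that hands cholesterol to NPC1, measured 189, 185 and 197 CPM in control cells with activin B, against 158, 174 and 164 CPM with DOX alone. Its rises were small, between 0.15 ± 0.06 in sh1/2 and 0.26 ± 0.06 in ALK7-DN on the log2 scale. The call held in all 14 settings in ALK7 and ALK7-DN, in 11 of 14 in control and in 9 of 14 in sh2 cells. The groups overlapped in sh1/2 cells (121, 136 and 128 CPM, against 112, 125 and 108 CPM), and the call there held in 5 of 14 settings; with DOX replicate 2 as the 1 DOX library left, the value was 0.04 (adjusted p = 0.867). Npc1, the membrane partner, rose in control, sh2 and sh1/2 cells by 0.14, 0.18 and 0.16 (SE 0.05 each). These calls held in 6, 11 and 10 of 14 settings, with adjusted p up to 0.2095 in control, 0.0584 in sh2 and 0.133 in sh1/2. Its values in ALK7 (0.13, adjusted p = 0.056) and ALK7-DN (0.14, adjusted p = 0.054) did not pass the threshold. Npc1 overlaps Rmc1 and Gm15956 on the other strand. Stard4, which carries cholesterol between membranes and is an SREBP2 target, was called in ALK7 and sh1/2 cells. It measured 263, 270 and 282 CPM in ALK7 cells with activin B, against 364, 377 and 367 CPM, a log2 fold change of -0.44 ± 0.07 (adjusted p = 1.5e-05). The sh1/2 line had 241, 252 and 232 CPM with activin B, against 342, 283 and 338 CPM (-0.41 ± 0.07, adjusted p = 6.2e-05). In control cells the groups overlapped, at 359, 429 and 369 CPM with activin B and 399, 424 and 406 CPM with DOX alone. The mean Stard4 value over the control, ALK7 and sh1/2 lines was -0.31, a call that held in all 26 alternative settings.

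With activin B the synthesis enzymes were called about as often as all genes in control, ALK7 and sh2 cells. Of the 19, 3 rose and 2 fell in control cells (median log2 fold change 0.08), 0 rose and 5 fell in ALK7 (-0.11), 5 rose and 1 fell in ALK7-DN (0.14), 1 rose and 2 fell in sh2 (-0.04), and 2 rose and 7 fell in sh1/2 (-0.15). As shares of the 19 these calls were 26.3% in control, 26.3% in ALK7, 31.6% in ALK7-DN, 15.8% in sh2 and 47.4% in sh1/2, beside 20.3%, 25.3%, 16.1%, 19.6% and 36.6% of all genes in the same order. The 0 rises in ALK7 came from edgeR and were also 0 with DESeq2. At an unadjusted p under 0.05 there were 8 of the 19 enzymes in either direction, beside 5420 of 15627 genes tested. In the mean over the control, ALK7 and sh1/2 lines 2 enzymes rose and 5 fell, 36.8% of the 19 beside 39.1% of all genes. Those that fell were Tm7sf2 (-0.61), Msmo1 (-0.25), Ebp (-0.25), Sqle (-0.17) and Hmgcs1 (-0.15). Those that rose were Mvd (0.27) and Dhcr7 (0.18). Tm7sf2 (chromosome 19, 6062821 to 6068373, minus strand), a sterol C14-reductase of the endoplasmic reticulum, fell in all 5 lines. It measured 17.3, 15.2 and 17.5 CPM in control cells with activin B, against 26.3, 25.1 and 26.7 CPM with DOX alone. In ALK7 cells it measured 12.01, 12.2 and 12.6 CPM with activin B, against 20.6, 22.1 and 22.5 CPM. The groups were separate in both lines, as in ALK7-DN (16.5, 17.3 and 16.2 CPM, against 24.4, 25.3 and 24.9 CPM) and sh2 (14.2, 15.7 and 14.3 CPM, against 26.5, 25.4 and 23.0 CPM). They overlapped in sh1/2 cells, at 8.97, 10.9 and 8.98 CPM with activin B and 12.5, 14.1 and 10.3 CPM with DOX alone. The fold lay between 0.57 in ALK7 (log2 -0.82 ± 0.09, adjusted p = 7.2e-08) and 0.78 in sh1/2 (-0.36 ± 0.09, adjusted p = 0.0040). In sh1/2 the call held in 13 of 14 settings and was lost with those groups fitted alone (edgeR adjusted p = 0.150). Tm7sf2 overlaps Vps51 on the same strand, so reads of these genes could be shared.

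Ebp, the sterol isomerase after the C14-reductase step, fell in 3 lines: control (-0.31 ± 0.06), ALK7 (-0.39 ± 0.06) and sh2 (-0.25 ± 0.06, SE), with adjusted p between 3.3e-05 and 0.0053. It measured 91.0, 90.7 and 90.9 CPM in ALK7 cells with activin B, against 120, 120 and 116 CPM. Its values were -0.17 in ALK7-DN and -0.05 in sh1/2, neither past the threshold. Dhcr7, which makes cholesterol from its last precursor, moved the other way and rose in ALK7-DN, sh2 and sh1/2 cells by 0.26, 0.18 and 0.31 (SE 0.06 each). In sh2 the call held in 8 of 14 settings (edgeR adjusted p up to 0.132). In sh1/2 it held in 12 of 14 and was lost with those groups fitted alone. The sh1/2 line had 80.6, 81.5 and 79.7 CPM with activin B, against 62.0, 71.4 and 61.5 CPM. Nsdhl, a sterol dehydrogenase of the demethylation steps, measured 127, 151 and 128 CPM in control cells with activin B, against 106, 119 and 111 CPM with DOX alone, a rise of 0.27 ± 0.07 (adjusted p = 0.0047). It also rose in ALK7-DN, at 142, 136 and 140 CPM with activin B, against 113, 112 and 118 CPM (0.28 ± 0.07, adjusted p = 0.0033). Acat2, a cytosolic thiolase that makes acetoacetyl-CoA, rose in control and ALK7-DN cells by 0.22 and 0.25 (SE 0.07 each), and Fdft1, squalene synthase, in control cells by 0.17 ± 0.06. In control cells the Acat2 call held in 8 and the Fdft1 call in 6 of 14 settings (adjusted p up to 0.127 and 0.171), and both were lost without any 1 of control DOX replicates 1 and 3 and activin B replicates 2 and 3.

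The enzymes that fell in ALK7 cells besides Tm7sf2 and Ebp were Msmo1, Sqle and Lss. Msmo1, the sterol C4-methyl oxidase, measured 223, 252 and 273 CPM with activin B, against 310, 323 and 306 CPM with DOX alone (-0.33 ± 0.10, adjusted p = 0.013). Sqle, squalene epoxidase, measured 183, 199 and 199 CPM with activin B, against 215, 235 and 230 CPM (-0.23 ± 0.06, adjusted p = 0.0048). Lss, lanosterol synthase, measured 214, 215 and 226 CPM with activin B, against 259, 247 and 252 CPM (-0.21 ± 0.05, adjusted p = 0.0038). The activin B libraries lay below the DOX libraries for each of the 3. In control cells the same genes had log2 values of 0.03, -0.02 and 0.01, none past the threshold. In sh1/2 cells Msmo1 fell by 0.46 and Sqle by 0.27 on the log2 scale, along with Hmgcs1 (-0.39 ± 0.09), the demethylase Cyp51 (-0.25 ± 0.07), the ketoreductase Hsd17b7 (-0.24 ± 0.07) and Ggps1 (-0.24 ± 0.09), the synthase of geranylgeranyl diphosphate. Mvd, mevalonate decarboxylase, rose by 0.58 ± 0.14 in the same cells. Cyp51 and Hsd17b7 were called in opposite directions in ALK7-DN, where they rose by 0.22 and 0.21 (SE 0.07 each). Those rises were lost whenever 1 library was left out. In sh1/2 cells the Cyp51 and Hsd17b7 calls held in 8 of 14 settings each, and the Ggps1 call in 5 of 14. Each of these falls was lost with a GC correction.

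Some sh1/2 values differed with the GC content of the gene. In sh1/2 DOX replicates 1 and 3, as in control activin B replicate 2, genes with a high share of G and C had fewer reads than in other libraries: the rank correlation of a gene's GC content with its deviation in the library was -0.491, -0.533 and -0.572 in that order, against -0.307 to 0.412 in the other 27. Mvd, with 59.0% GC the richest of the enzymes, measured 29.0, 42.5 and 26.8 CPM in sh1/2 cells under DOX alone, so that only replicate 2 came near the activin B values of 47.0, 54.0 and 47.0 CPM. Ggps1, at 40.1% GC the poorest, showed the reverse, with 87.5, 71.7 and 98.2 CPM under DOX alone and 76.6, 71.0 and 69.6 CPM with activin B. After a GC correction, which keeps all libraries, 11 members were called in sh1/2 cells in place of 17. Without the 3 libraries 5 were called, but the DOX group is then replicate 2 alone. With that 1 library the Mvd value was 0.22 (adjusted p = 0.427), Hmgcs1 -0.19 (0.333) and Msmo1 -0.25 (0.162), whereas Tm7sf2 was -0.54 (0.00042) and Stard4 -0.23 (0.0393). The count was 11 without sh1/2 DOX replicate 1 alone and 10 without sh1/2 activin B replicate 3. Fitted alone, the sh1/2 groups gave 5 calls (Abca1, Abcg1, Soat1, Stard4 and Msmo1).

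**Figure D3:**
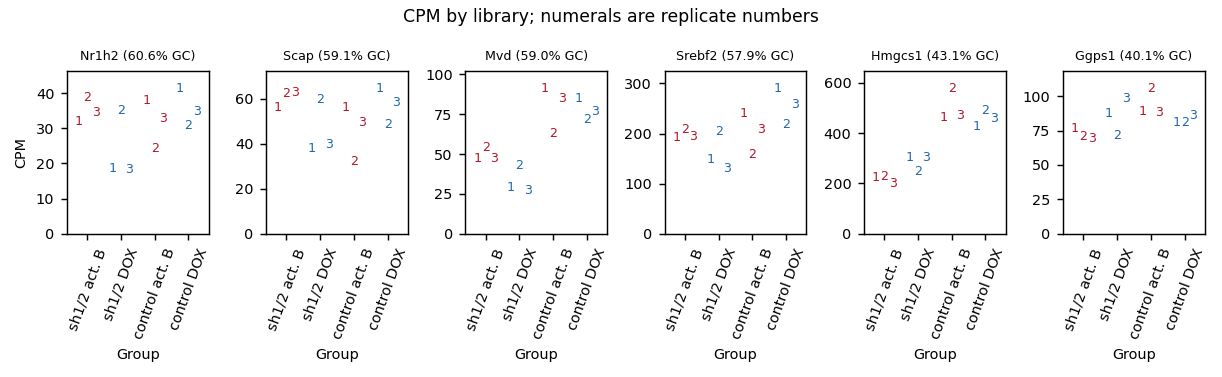
CPM in each library of the sh1/2 and control lines for 6 genes ordered by GC content, with numerals for replicate numbers, red for activin B and blue for DOX alone. In sh1/2 cells under DOX alone, replicates 1 and 3 lay below replicate 2 for the 4 GC-rich genes (Nr1h2, Scap, Mvd and Srebf2) and above it for Hmgcs1 and Ggps1.

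The SREBP2 regulators were not called with activin B in any of the 5 lines by edgeR. At an unadjusted p under 0.05 there were 2 of the 4 in control cells, 2 in sh1/2 cells and 0 in the other lines. Of the 15627 genes tested, 4733 had such a p in control, 7428 in sh1/2, 5420 in ALK7, 4035 in ALK7-DN and 4814 in sh2 cells. DESeq2 called 1 of the 4 regulators, in control cells. Srebf2, which encodes SREBP2, measured 239, 157 and 208 CPM in control cells with activin B, against 291, 218 and 258 CPM with DOX alone, and the groups overlapped. Its log2 fold changes were -0.34 ± 0.15 in control, 0.05 ± 0.15 in ALK7 and 0.30 ± 0.15 in sh1/2. With a GC correction and the replicate number as a block, edgeR called Srebf2 lower in ALK7 cells (-0.12). Over the control, ALK7 and sh1/2 lines Srebf2 was called lower with the GC correction (-0.12), and Scap with the block added (-0.066). Insig1, itself an SREBP2 target, measured 498, 569 and 487 CPM in control cells with activin B, against 423, 464 and 424 CPM, without overlap (0.25 ± 0.09, adjusted p = 0.059 by edgeR and 0.042 by DESeq2). In ALK7 cells it overlapped, at 370, 407 and 425 CPM with activin B and 292, 400 and 384 CPM with DOX alone. Insig2, which is not a strong SREBP2 target, varied least over the 30 libraries, with a ratio of 1.25 between its highest and lowest CPM. Scap measured 56.1, 32.1 and 49.6 CPM in control cells with activin B, against 64.8, 48.8 and 58.3 CPM; replicate 2 was lowest in both groups.

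The responses were compared between lines where batch allowed it, with the control libraries shared. For ALK7 against control the difference in response was called for 0 of the 32 genes by edgeR. That contrast called 0.0256% of all genes (0.0192% higher, 0.00640% lower). At an unadjusted p under 0.05 there were 12 of the 32 members, beside 1595 of 15627 genes tested. DESeq2 called 1 member, Nsdhl. The Nsdhl difference was -0.43 ± 0.09 (adjusted p = 0.093 by edgeR and 0.011 by DESeq2). For sh1/2 against control 3 members had a more positive response and 10 a more negative one, with 17.7% of all genes called (8.49% more positive, 9.22% more negative). The 10 included the enzymes Hmgcs1 (-0.53 ± 0.13), Msmo1 (-0.49 ± 0.14), Cyp51 (-0.44 ± 0.11) and Nsdhl (-0.43 ± 0.10), and the exporter Abca1 (-0.31 ± 0.10). Both lines in this contrast hold libraries poor in GC-rich genes, and a GC correction left 4 calls. Without those 3 libraries edgeR called 0, with 1 library in the sh1/2 DOX group and 2 in the control activin B group. DESeq2 called 18, and fitting the 4 groups alone 0. Left out singly, control activin B replicate 2 or sh1/2 DOX replicate 1 or 3 gave a count of 1, control DOX replicates 1 and 3 gave 2 and 3, sh1/2 activin B replicates 1, 2 and 3 gave 8, 4 and 3, and sh1/2 DOX replicate 2 gave 24, while control activin B replicate 1 gave 19.

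The enzymes also differed between the lines. In sh1/2 cells 17 of the 19 synthesis enzymes were lower than in the control line with activin B, and 17 of 19 under DOX alone. Over the 32 genes, 2 were higher and 21 lower with activin B, in a comparison that called 35.2% of all genes (16.9% higher, 18.3% lower), and 3 were higher and 24 lower under DOX alone, with 38.0% called (19.4% higher, 18.6% lower). The median log2 fold change of the enzymes was -0.79 with activin B and -0.67 under DOX alone, beside 0.01 and 0.00 for all genes tested. Across all 8 other settings that keep the groups whole or leave out the 3 libraries together, 16 to 18 of the 19 enzymes were lower in each arm. The sh1/2 libraries also differed in other respects: the summed CPM of the 10 beta cell markers was 15922 to 17740 with activin B and 14535 to 20009 under DOX alone, against 16537 to 20444 and 23355 to 24599 in the control line. The sum of 3 liver markers, mostly Ttr, was 393 to 412 CPM with activin B and 337 to 418 CPM under DOX alone, against 137 to 154 and 160 to 186 CPM in the control line. The part of these differences in the enzyme result was not tested.

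Hmgcs1, at the entry to the mevalonate pathway, and Msmo1 and Lss, of the sterol steps, were among the enzymes called lower in sh1/2 cells. Hmgcs1 (chromosome 13, 119690379 to 119708260, plus strand) measured 223, 226 and 198 CPM in sh1/2 cells with activin B, against 463, 579 and 471 CPM in control cells with activin B. Under DOX alone it measured 301, 247 and 301 CPM in sh1/2 cells, against 425, 489 and 457 CPM in control cells. All sh1/2 libraries lay below all control libraries. The log2 fold change was -1.22 ± 0.09 with activin B (adjusted p = 1.3e-10) and -0.69 ± 0.09 under DOX alone (adjusted p = 1.4e-06). Msmo1 (chromosome 8, 64718139 to 64733792, minus strand) measured 172, 181 and 152 CPM in sh1/2 cells with activin B, against 340, 438 and 352 CPM in control cells with activin B (-1.16 ± 0.10, adjusted p = 1.2e-09). Lss measured 144, 156 and 146 CPM in sh1/2 cells with activin B, against 315, 282 and 293 CPM in control cells. Its log2 value was -0.996 ± 0.05 with activin B and -1.003 ± 0.05 under DOX alone, with 144, 155 and 140 CPM in sh1/2 cells under DOX alone, against 298, 291 and 293 CPM in control cells. The groups were separate for both genes.

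Fdps measured 202, 226 and 205 CPM in sh1/2 cells with activin B, against 438, 447 and 436 CPM in control cells, and Nsdhl 66.5, 67.1 and 60.6 CPM, against 127, 151 and 128 CPM. Each gave a log2 fold change of -1.06. Cyp51 and the desaturase Sc5d were lower by a log2 value of -0.93 each. Smaller differences were seen for Hsd17b7 (-0.83), Acat2 (-0.82), Tm7sf2 (-0.79), Dhcr7 (-0.72), Mvd (-0.69), Fdft1 (-0.69), the phosphomevalonate kinase Pmvk (-0.68), Sqle (-0.57) and Ggps1 (-0.38). Ebp differed least among those called, at -0.16 ± 0.06 (adjusted p = 0.049), its libraries overlapped, and fitting these groups alone gave an adjusted p of 0.143. The 2 enzymes not called with activin B were Mvk, mevalonate kinase (-0.19 ± 0.21), and Idi1, isopentenyl diphosphate isomerase (0.65 ± 0.41). Idi1 spread widely within groups, with 278, 208 and 161 CPM in sh1/2 cells and 100, 188 and 125 CPM in control cells with activin B, and the groups overlapped. Mvk under DOX alone, at 23.5, 43.1 and 21.0 CPM in sh1/2 cells against 65.4, 48.6 and 59.6 CPM in control cells, was lowest in sh1/2 replicates 1 and 3, and with replicate 2 as the 1 sh1/2 DOX library its value was -0.43 (adjusted p = 0.148) in place of -0.98.

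**Figure D4:**
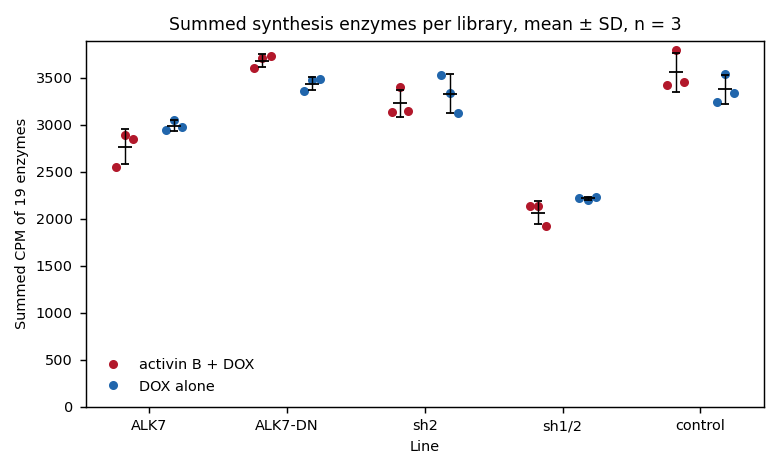
Summed CPM of the 19 synthesis enzymes in each library (points; bars are mean ± SD, n = 3) by line, with activin B left of DOX alone. The 6 sh1/2 libraries lay between 1923 and 2231 CPM and the 6 control libraries between 3245 and 3800 CPM.

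Summed over the 19 enzymes, sh1/2 cells had 2065 ± 124 CPM with activin B, against 3557 ± 211 CPM in control cells (SD, n = 3). Under DOX alone the sums were 2218 ± 16.5 CPM in sh1/2 and 3375 ± 153 CPM in control cells. ALK7 cells lay between, at 2765 ± 185 CPM with activin B and 2989 ± 58.3 CPM under DOX alone. The sums in sh2 cells were 3227 ± 147 and 3331 ± 205 CPM, and in ALK7-DN cells 3682 ± 68.0 and 3439 ± 69.7 CPM, with activin B and under DOX alone in that order. The 6 sh1/2 libraries lay below all others, and the 6 ALK7 libraries, between 2552 and 3054 CPM, lay below every library of the control, sh2 and ALK7-DN lines.

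The knock-down lines share a plasmid and, with activin B, a batch. In that comparison 17 of the 19 enzymes were lower in sh1/2 than in sh2 cells, with a median log2 fold change of -0.64. Over the 32 genes 2 were higher and 21 lower, and 23.3% of all genes were called (10.8% higher, 12.5% lower). Hmgcs1 measured 223, 226 and 198 CPM in sh1/2 cells, against 403, 447 and 392 CPM in sh2 cells (-0.94 ± 0.09, adjusted p = 2.8e-08). Nsdhl measured 66.5, 67.1 and 60.6 CPM in sh1/2 cells, against 122, 133 and 124 CPM in sh2 cells (-0.96 ± 0.07, adjusted p = 1.7e-10). The lines were separate for both. Between sh2 and control cells with activin B, 0 enzymes were higher and 3 were lower: Hmgcs1 (-0.29 ± 0.09), Hsd17b7 (-0.28 ± 0.07) and Lss (-0.20 ± 0.05). That contrast called 4 of the 32 genes, all lower, and 9.23% of all genes (3.06% higher, 6.18% lower). Abca1 was the fourth, at 178, 167 and 171 CPM in sh2 cells, against 246, 239 and 225 CPM in control cells (-0.46 ± 0.07, adjusted p = 6.6e-05). Of the 19 enzymes, 7 had an unadjusted p under 0.05, beside 3237 of 15627 genes tested, and DESeq2 called 3. Without sh2 activin B replicate 3 the count over the 32 was 1, and with these groups fitted alone Abca1 was the 1 call.

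**Figure D5:**
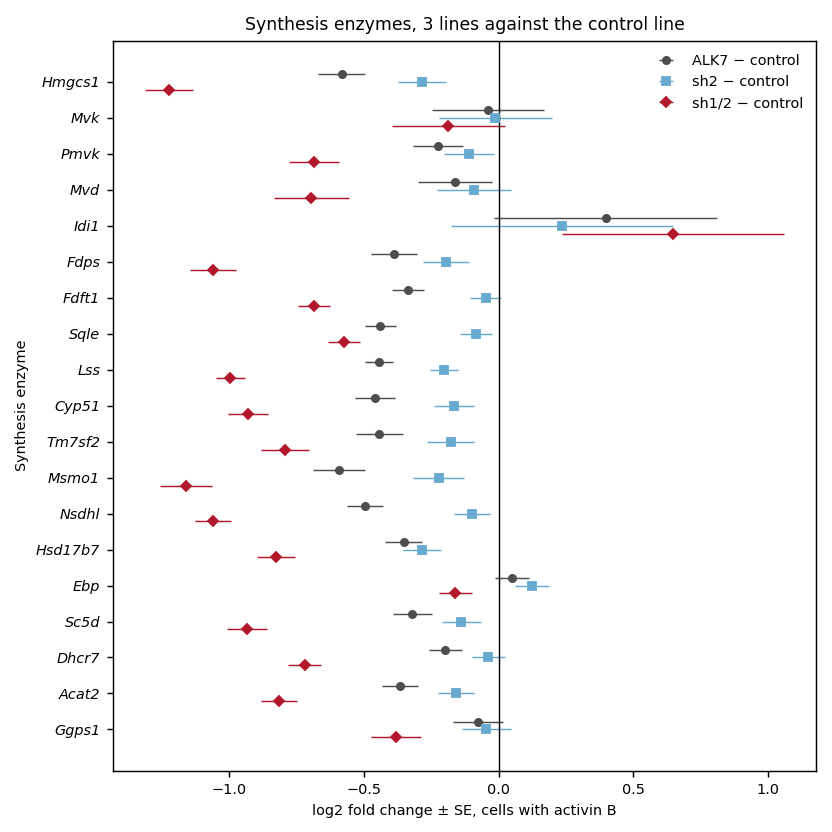
Log2 fold change ± SE (edgeR) of the 19 enzymes in ALK7, sh2 and sh1/2 cells against control cells, all with activin B; the 3 comparisons share the control libraries. The sh1/2 points lay left of 0 for 18 enzymes, down to -1.22 for Hmgcs1, and the sh2 points between -0.29 and 0.24.

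Around the enzymes, the other roles were less uniform in sh1/2 cells. Insig1 (chromosome 5, 28071363 to 28078662, plus strand) was lower like the enzymes, at 261, 275 and 235 CPM in sh1/2 cells with activin B, against 498, 569 and 487 CPM in control cells (-1.01 ± 0.09, adjusted p = 5.0e-09). Srebf2 itself did not pass the threshold with activin B, at 193, 209 and 194 CPM in sh1/2 cells and 239, 157 and 208 CPM in control cells (-0.02 ± 0.15, adjusted p = 0.93). Under DOX alone its value was -0.67 ± 0.15 (adjusted p = 0.0012), and -0.33 (adjusted p = 0.158) with replicate 2 as the 1 sh1/2 DOX library. Scap and Insig2 passed in neither arm. Stard4 was lower at 241, 252 and 232 CPM in sh1/2 cells with activin B, against 359, 429 and 369 CPM in control cells (-0.67 ± 0.07), and so was Npc2 at 121, 136 and 128 CPM, against 189, 185 and 197 CPM (-0.57 ± 0.06). Soat1 did not pass (-0.14 ± 0.06, adjusted p = 0.098), and Npc1 was higher by 0.14 ± 0.05 (adjusted p = 0.023, and 0.141 with these groups fitted alone).

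Of the LXR and export genes, Nr1h3 was higher in sh1/2 cells, at 3.74, 4.55 and 4.003 CPM with activin B, against 2.30, 1.5 and 2.58 CPM in control cells (0.94 ± 0.20, adjusted p = 0.00057). Abca1 was lower, at 168, 155 and 160 CPM, against 246, 239 and 225 CPM in control cells (-0.56 ± 0.07, adjusted p = 9.2e-07). Abcg1 (-0.24 ± 0.09), Nr1h2 (0.14 ± 0.21) and Mylip (0.16 ± 0.08) did not pass the threshold with activin B. Under DOX alone Abca1 (-0.25 ± 0.07) and Abcg1 (-0.54 ± 0.10) were lower and Mylip (0.26 ± 0.08) and Nr1h3 (0.55 ± 0.20) higher. Nr1h2 was also lower (-0.56 ± 0.21), but its value was -0.03 (adjusted p = 0.959) with replicate 2 as the 1 sh1/2 DOX library. Fitted alone, these groups gave adjusted p of 0.152 for Abca1, 0.103 for Mylip and 0.151 for Nr1h3.

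Cells of the line labelled ALK7, where counted Acvr1c was not higher than in control cells, also had lower enzymes with activin B. The comparison shares its control libraries with that of sh1/2. There 12 of 19 enzymes were lower and 0 higher than in control cells with activin B, with a median of -0.35, and over the 32 genes 15 were lower and 0 higher, beside 4.53% of all genes called (2.09% higher, 2.44% lower). DESeq2 called 13 of the enzymes lower and 0 higher. At an unadjusted p under 0.05 there were 14 of the 19 enzymes, beside 2893 of 15627 genes tested. Msmo1 had the lowest log2 value, at 223, 252 and 273 CPM in ALK7 cells, against 340, 438 and 352 CPM in control cells (-0.59 ± 0.10, adjusted p = 0.00039). Hmgcs1 measured 298, 348 and 364 CPM in ALK7 cells, against 463, 579 and 471 CPM in control cells (-0.58 ± 0.09, adjusted p = 0.00019), and Soat1 170, 145 and 167 CPM, against 223, 224 and 215 CPM (-0.46 ± 0.06, adjusted p = 6.6e-05). No library overlapped for these genes. The calls rested on the spread estimated over all 10 groups: with the 2 groups fitted alone, Lss was the 1 member still called (-0.45, adjusted p = 0.0455), while the values hardly moved. Under DOX alone 3 members were lower and 0 higher (Sqle -0.23, Lss -0.22 and Soat1 -0.33), with 1.98% of all genes called (1.03% higher, 0.953% lower). A GC correction gave 13 members, all lower, whereas leaving out any 1 of the 6 libraries left a count of 1, and Soat1 held in all 14 settings. In ALK7-DN cells under DOX alone 1 member was called, lower, beside 0.966% of all genes (0.378% higher, 0.589% lower): Abca1, at 64.6, 64.7 and 67.7 CPM, against 84.4, 80.2 and 80.2 CPM in control cells (-0.31 ± 0.07, adjusted p = 0.028), and it was called in none of the counts with 1 library left out.

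A list of 42 other genes of sterol supply, handling and isoprenoid branches had 39 that passed the low-count filter. In the mean response to activin B over the control, ALK7 and sh1/2 lines 11 of the 39 rose and 11 fell, with a median of -0.03, beside 39.1% of all genes called. The genes named here were among the 8 with the smallest p. Acly, which supplies cytosolic acetyl-CoA, rose by 0.73 ± 0.03, at 6041, 5045 and 5941 CPM in control cells with activin B, against 3468, 3434 and 3556 CPM. Gramd1a, which moves cholesterol from the plasma membrane to the endoplasmic reticulum, rose by 1.35 ± 0.07, at 137, 99.0 and 126 CPM in control cells with activin B, against 62.1, 53.9 and 59.0 CPM. Both also rose in each of the 5 lines. Scarb1, the HDL receptor, rose by 0.50 ± 0.06 and the transporter Abca7 by 0.67 ± 0.09. Vldlr, a lipoprotein receptor, fell by 0.31, the ligase Rnf139 by 0.27 and the membrane protein Erlin2 by 0.18. In sh1/2 cells with activin B, 9 of the 39 were higher and 11 lower than in control cells, with a median of 0.03, beside 35.2% of all genes called (16.9% higher, 18.3% lower).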

How the data were processed

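Poly(A) RNA of 30 βTC3 libraries was sequenced, and the counts used are raw counts per gene as deposited. Per the submitters' processing notes, the authors' tools were bcl2fastq 2.17, cutadapt 1.4.2, HISAT2, featureCounts 1.4.4 and edgeR, on mm10. The sources used here do not give the strand setting or how reads with several matches were counted, so overlapping genes are uncertain. The 30 columns held the same values as the single-sample files. No replicate pair agreed within sampling noise (the lowest chi-square was 8.25 per degree of freedom).

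Groups came from the sample titles. Low counts were removed with filterByExpr and libraries were scaled by TMM. The edgeR 4.0.16 quasi-likelihood test was fitted to 10 group means over 30 libraries, with 15 contrasts, in R 4.3.3. P-values were Benjamini-Hochberg adjusted over 15627 genes in each contrast, and called means adjusted p under 0.05. The test was tried on simulated counts for activin B in control: of 100 genes changed by 1 on the log2 scale 92% were called, and of 100 changed by 0.5, 56%. The simulated counts were independent between libraries, without GC skew and with fewer changed genes than the data, so these shares need not hold for the real counts. Alternatives were DESeq2 1.42.0, its size factors, no low-count filter, the replicate number as a block, a GC offset per library (lowess span 0.3), the compared groups alone, leaving out the 3 libraries poor in GC-rich genes, and each library left out. All 32 members could be named, and of the 42 other pathway genes the 8 with the smallest p, of which 1 is not reported here. The members and lists were chosen with earlier results of these data known. Positions and exon lengths are from GENCODE M21.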

Additional observations from a re-analysis of the deposited data

Results flagged for a closer look

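The response to activin B differed between sh1/2 and control cells, by the test of the difference itself, for 13 of the 32 genes. That contrast called 17.7% of all genes (8.49% more positive, 9.22% more negative). The log2 differences were -0.53 for Hmgcs1, -0.49 for Msmo1, -0.44 for Cyp51, -0.43 for Nsdhl, -0.43 for Ggps1, -0.34 for Hsd17b7, -0.32 for Stard4, -0.32 for Acat2, -0.31 for Abca1 and -0.25 for Sqle. They were 0.26 for Ebp, 0.64 for Srebf2 and 0.71 for Scap. Adjusted p (edgeR) ran between 0.0096 for Nsdhl and 0.047 for Ebp. With a GC correction 4 of the 13 were called, and DESeq2 called 18 of the 32. With the compared groups fitted alone 0 were called, and with 1 library left out the count ran from 1 to 24. Without the 3 libraries poor in GC-rich genes 0 were called, with 1 library left in the sh1/2 DOX group and 2 in the control activin B group.

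In other pairs of lines every activin B library lay above every DOX library in one line and below in the other. Between ALK7 and ALK7-DN cells these were Hmgcs1 (difference of the log2 fold changes -0.28), Lss (-0.33), Nsdhl (-0.45) and Insig2 (-0.16). Between ALK7-DN and sh1/2 cells they were Hmgcs1 (0.49), Cyp51 (0.47) and Hsd17b7 (0.45), and between sh2 and sh1/2 cells Hsd17b7 (0.40). These differences were not tested, since the ALK7-DN and sh2 arms lie in different batches. The share of all genes tested that did the same is not given here, so the list does not show that these members were unusual.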

How the results depend on the processing

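Among single genes, 3481 values kept their status as called or not called under settings other than leaving out a single library. Of the rest, 189 gained the call, 157 lost it, and 13 turned sign with a call under the main or the other setting. A value called under neither setting counts among the 3481 whatever its sign. With a single library left out, 3370 values kept their status, 49 gained the call and 229 lost it. Turned values were Srebf2 in ALK7 with activin B (-0.12, GC correction with replicate block), over the 3 lines (-0.12 with GC correction, -0.12 with the block added) and in ALK7 against control with activin B (-0.14, same setting); Scap over the 3 lines (-0.066); and Nr1h2 in sh1/2 against control (-0.18) and sh2 (-0.18). Ggps1 turned in sh1/2 with activin B (0.028 with GC correction, 0.028 with block, 0.018 without the 3 libraries) and in sh1/2 against control under DOX (-0.12 and -0.12), as did the Soat1 difference in response (0.14).

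The replicate block gave 16 calls for activin B in control, 1 for the ALK7 difference in response and 23 for the sh1/2 difference. The GC correction gave 16, 2 and 4 for these, 11 for activin B in sh1/2, 13 for ALK7 under DOX and 7 for sh2 against control. With both, the counts were 18 in control, 19 in ALK7, 19 in ALK7-DN, 16 in sh2, 3 for the ALK7 difference, 15 for ALK7 under DOX and 9 for sh2 against control. Without the 3 libraries, which leaves 1 library in the sh1/2 DOX group, activin B in sh1/2 had 5, its difference 0 and ALK7 under DOX 5. With the compared groups alone, activin B had 4 in control and 5 in sh1/2, the sh1/2 difference 0, ALK7-DN under DOX 0, and with activin B ALK7 had 1 and sh2 1. With no filter the sh1/2 difference had 4, ALK7 under DOX 1, ALK7-DN under DOX 0 and sh2 against control 2. DESeq2 called 1 in the ALK7 difference. The shares of all genes called under these settings, or with 1 library left out, are not given here. Changes in these counts thus cannot be told apart from general changes in calls. The cause was not tested.

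With 1 library left out, counts for activin B ran 6 to 9 in control, 10 to 12 in ALK7, 7 to 10 in ALK7-DN, 6 to 10 in sh2, 10 to 24 in sh1/2 and 14 to 16 over 3 lines. For differences in response they ran 0 to 1 (ALK7; 1 without control activin B replicate 1) and 1 to 24 (sh1/2). Under DOX they were 1 in ALK7, 0 in ALK7-DN and 23 to 26 in sh1/2; with activin B, 12 to 15 in ALK7, 1 to 4 in sh2, 21 to 24 in sh1/2, and 21 to 23 for sh1/2 against sh2.

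Replicate numbers did not meet the rule for pairing: 13 of 15 same-numbered pairs had r over 0.1 (0.0794 to 0.329; the lowest in control replicate 3 and the other, 0.0932, in sh2 replicate 2), though all 15 activin B libraries correlated best with their own number, as a hint from the data.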
